A study of Mus musculus with 96 samples.

Results

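The imprinted Dlk1-Dio3 microRNA cluster was followed in the liver of Htt CAG knock-in mice as 34 microRNA hairpins, defined by a list of their miRBase hairpin IDs. All 34 were found among the 1187 hairpins of the table, and all 34 were above 0 in at least 1 library, as were 993 of the 1187. Small RNA was sequenced from the livers of 96 mice labelled as C57BL/6, bred with C57BL/6J females per the study's methods, in 24 groups of 4, one library per mouse. The groups crossed 6 genotypes with 2 ages (6 and 10 months) and 2 sexes. The heterozygous knock-in mice carried one wild-type Htt allele and one engineered allele with human HTT exon 1 and a CAG repeat of 20 (Q20, Htt tm2Mem), 50 (Q50, Htt tm3Mem), 92 (Q92, Htt tm4Mem) or 140 (Q140, Htt tm1Mfc). The other genotypes were wild-type (WT) mice of the Q20 line and WT mice of the Q50 line, and the WT mice and the Q20 mice together served as controls, so that part of the controls carried an engineered allele too. The allele is carried in the germline and so by every cell of the body. Each repeat length is its own line, so between lines repeat length and line cannot be told apart. WT mice of the same line were present for Q20 and Q50 mice only.

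The Dlk1-Dio3 region of mouse chromosome 12 is imprinted: the maternal copy produces the long noncoding RNAs Meg3, Rian and Mirg together with many microRNAs, and the paternal copy expresses the protein-coding genes Dlk1, Rtl1 and Dio3. The microRNAs are processed from hairpins in long maternal transcripts, and some of them lie opposite the coding exon of the retrotransposon-derived gene Rtl1, whose RNA they target in mouse placenta. The cluster is abundant in embryo, placenta and brain and low in most adult tissues, liver included.

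The files gave hairpin IDs and no names. The hairpin length, recovered from the count and the FPKM value of each ID, was therefore compared with the 57 RefSeq hairpins (GRCm38.p6, the mm10 assembly) between chr12:109563692-109747960. All 34 lengths were found in that span. Of these, 9 members had the length of 1 hairpin only, 2 more had 1 candidate named in the definition of the cluster, and 23 had no single name. Names below follow the ID in parentheses and rest on length. No ID was paired with a tissue marker either, so the liver label was not checked. MI0000154 (Mir127, 70 nt, chr12:109592846-109592915), MI0001526 (Mir434, 94 nt, chr12:109594506-109594599), MI0000162 (Mir136, 62 nt, chr12:109595327-109595388) and MI0001525 (Mir433, 124 nt) lay opposite the exon of Rtl1 in the GENCODE annotation of this assembly. MI0003521 (Mir541, 90 nt, chr12:109742409-109742498) lay in an intron of Mirg, MI0000160 (Mir134), MI0003492 (Mir485) and MI0001161 (Mir410) in exons of Mirg, and MI0000625 (Mir341) in an intron of Rian. MI0003518 (Mir540) and MI0003532 (Mir494) lay outside the longer genes of that annotation.

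The mature sequences of the 4 named hairpins among the 6 most abundant members are shown, because these hairpins carry most of the signal described here. Each is written 5′ to 3′ from RefSeq (GRCm38.p6, chromosome 12, plus strand), and capitals mark the seed, bases 2 to 8, which pairs with target RNAs.
mmu-miR-127-5p: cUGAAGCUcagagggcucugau
mmu-miR-127-3p: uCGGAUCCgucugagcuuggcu
mmu-miR-434-5p: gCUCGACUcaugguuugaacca
mmu-miR-434-3p: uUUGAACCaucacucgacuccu
mmu-miR-136-5p: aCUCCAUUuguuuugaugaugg
mmu-miR-136-3p: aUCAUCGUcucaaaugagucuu
mmu-miR-541-5p: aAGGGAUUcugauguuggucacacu
mmu-miR-541-3p: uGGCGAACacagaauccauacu
The 8 seeds differ from one another, and none is shared with any other of the 107 mature microRNAs annotated in the span. The table counts reads per hairpin, so the 2 arms of a hairpin cannot be told apart in any value below.

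Library totals ran from 2195052 to 6662671 estimated counts (median 5149567), so that 1 count was worth 0.15 to 0.456 CPM (counts per 1000000 of the column sum). The cluster took 0.04% of all counts and between 607 and 7887 counts per library, and 20 to 34 of its members (median 27) were detected in a library. The library names carry a tag from L5 to L8, read here as a lane tag, and the study's methods give a batch without defining it. On the study's limit for the standardised connectivity of a library with the others of its age (Z.k below -5), 4 libraries at 10 months stood apart: Q92 female replicate 1 (-5.275), Q92 male replicate 2 (-9.594), WT male replicate 3 of the Q20 line (-8.451) and WT male replicate 3 of the Q50 line (-5.877). These 4 were left out of every test and of the means over ages and sexes below, and were kept in the means of single groups of 4. No library at 6 months was below the limit.

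The summed level of the cluster varied 12-fold between livers, from 134.2 to 1604 CPM with a median of 329.2. It was carried by few members: the 6 most abundant held 89.9% of it. MI0000154 (Mir127) alone held 47.4%, at 193.2 ± 125.1 CPM (SD, n = 96), and ranked 105 among all hairpins. MI0001163 followed at 68.92 CPM (16.9%), MI0003521 (Mir541) at 40.13 CPM (9.84%) and MI0001526 (Mir434) at 37.82 CPM (9.27%). MI0000162 (Mir136) was at 17.44 CPM (4.27%) and MI0000400 at 9.077 CPM (2.23%). The order of these 6 was the same per length, with mean FPKM falling from 2760 for MI0000154 to 114.9 for MI0000400. Of the 34 members, 5 were above 10 CPM on average, 11 were between 1 and 10 and 18 were below 1. Among the last, MI0001525 (Mir433) reached 17.41 CPM (73 counts) in WT male replicate 1 of the Q20 line at 6 months, against a median of 0.162 CPM and a second highest value of 3.895 CPM. MI0000615, the rarest, was detected in 1 library. Reads that map to more than one hairpin were split in some libraries: MI0000400 with MI0000798 in 9 libraries MI0001162 with MI0003533 in 7, MI0000162 (Mir136) with a hairpin outside the cluster, MI0014034, in 4 and MI0000615 with MI0019179, also outside it, in 1. The values of these 6 members are less certain there.

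The 6-month groups showed how far single mice stood from one another. In Q140 mice the summed level was 1604, 451.6, 357.9 and 360.6 CPM in the 4 males and 489, 262, 551.6 and 213.1 CPM in the 4 females. In Q92 mice it was 441.2, 431.4, 332.9 and 362.4 CPM in males and 241.7, 381.2, 283.7 and 254.6 CPM in females. In Q50 mice it was 743.1, 428.4, 974.4 and 921.4 CPM in males and 373.8, 279.1, 323.5 and 237.2 CPM in females. The Q50 males were all above the Q50 females, whereas in Q140 and Q92 mice the sexes overlapped. Among controls, Q20 males had 273.9, 422, 224.2 and 693.8 CPM and Q20 females 232.7, 189, 547.3 and 168.7 CPM. WT males of the Q20 line had 499.8, 1011, 610.4 and 370 CPM and WT females of that line 311.7, 297.2, 367.2 and 270.7 CPM. WT males of the Q50 line had 298.3, 564.3, 511.1 and 973.1 CPM and WT females 373.5, 487, 1200 and 237.3 CPM. One mouse set the top of its group in the Q140 males, the Q20 females, the WT males of the Q20 line and the WT females of the Q50 line.

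At 10 months the levels were lower in most groups. Q140 males had 246.1, 774.3, 495.9 and 572.7 CPM and Q140 females 258.2, 335, 457 and 282.4 CPM. Q92 males had 949.2, 254.4, 851.7 and 292.5 CPM and Q92 females 219.8, 222.2, 243.5 and 205.6 CPM. Q50 males had 329.9, 483.7, 241.1 and 668.3 CPM and Q50 females 188.9, 161.1, 213.6 and 373.3 CPM. The 4 Q92 females lay close together while the Q92 males fell into a high pair and a low pair. Q20 males had 301.2, 670.2, 305.2 and 657.5 CPM and Q20 females 147.8, 178.4, 172.8 and 134.2 CPM. WT males of the Q20 line had 328.4, 398, 356.7 and 617.9 CPM and WT females 223.6, 261, 316.8 and 250.7 CPM. WT males of the Q50 line had 198.7, 152.6, 529.5 and 187.3 CPM and WT females 371, 152.5, 197.6 and 294.3 CPM. The Q20 females held the lowest single value, 134.2 CPM, and the single high WT male of the Q50 line (529.5 CPM) is one of the libraries below the connectivity limit.

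**Figure D1:**
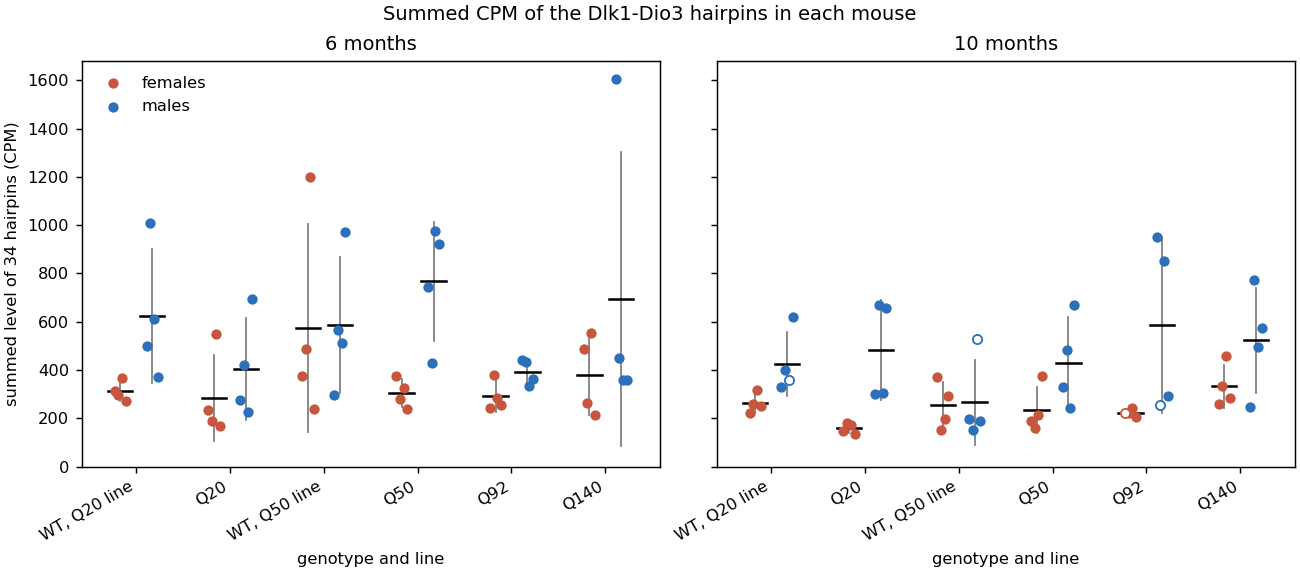
Summed CPM of the 34 cluster members in each of the 96 livers, by genotype, age and sex (y axis, CPM of the column sums). Black lines are means of 4 mice, grey bars their SD, and open circles the 4 libraries below the connectivity limit. Male means lie above female means of the same genotype and age when all 96 libraries are counted, but in WT mice of the Q50 line at 10 months only through 1 open circle. Group means run from 158.3 CPM in Q20 females at 10 months to 766.8 CPM in Q50 males at 6 months, and the highest single mouse is at 1604 CPM.

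In the order of the 24 group means, the lowest was 158.3 ± 20.87 CPM in Q20 females at 10 months and the highest 766.8 ± 246.3 CPM in Q50 males at 6 months (SD, n = 4 each). Of the 12 highest groups 11 were male. Neighbours in this order were not separated: 22 of the 23 steps were smaller than the larger SD of the pair, and the exception was the step from the Q20 females at 10 months to the Q92 females at 10 months (222.8 CPM). The Q20 females at 10 months were the lowest group for each of the 6 most abundant members. MI0000154 (Mir127) was at 82.49 ± 11.34 CPM there and at 360.3 ± 320.2 CPM in its highest group, the Q140 males at 6 months, where 1 mouse at 838.7 CPM set the mean. MI0003521 (Mir541) ran from 9.787 ± 2.722 CPM in those females to 96.54 ± 32.58 CPM in Q50 males at 6 months.

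Males and females are given first, since this comparison gave the most calls among the members. At 6 months the summed level was 577.5 ± 320.8 CPM in males (lowest 224.2, median 446.4, highest 1604, n = 24) and 357.2 ± 209.2 CPM in females (lowest 168.7, median 290.5, highest 1200, n = 24). At 10 months it was 463 ± 234.9 CPM in males (lowest 152.6, median 398, highest 949.2, n = 21) and 245.3 ± 82.76 CPM in females (lowest 134.2, median 223.6, highest 457, n = 23). With all libraries the male mean was the higher one in 12 of 12 pairs of groups matched for genotype and age, by 1.022 to 3.055 times (median 1.724). Without the 4 libraries below the connectivity limit, a count added after the data were seen, it was higher in 11 of 12, and WT mice of the Q50 line at 10 months turned to 179.5 CPM in males and 253.8 CPM in females (0.707 times). That pair rests on male replicate 3. The ranges of all males and all females overlapped at both ages.

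Single members were tested with edgeR's quasi-likelihood test, fitted over all hairpins that reached 1 CPM in 8 or more libraries and with genotype and lane tag as further terms. A hairpin was called differentially expressed when its Benjamini-Hochberg adjusted p was below 0.05. At 6 months 22 of the 34 members were tested, and edgeR called 20 higher in males and 0 lower (DESeq2 21 and 0), against 22.5% of the 374 hairpins tested called higher and 15.8% called lower. At 10 months 22 members were tested, and edgeR called 18 higher and 0 lower (DESeq2 19 and 0), against 22.2% higher and 23.2% lower among 383 hairpins. The median log2 difference, male minus female, over the tested members was 0.999 at 6 months and 1.35 at 10 months, and over all hairpins it was 0.02 and -0.02. The filter itself leaned on the males: 20 members reached the minimum in the 6-month males and 13 in the 6-month females, and 22 and 14 at 10 months, so some members entered the test through the sex in which they were high and their calls are no support. Over the members that reached the minimum in females alone, a choice made after the data were seen, 13 of 13 were called higher at 6 months and 11 of 14 at 10 months. The share of all hairpins called higher under that restriction was not counted. The 22.5% and 22.2% above belong to the unrestricted filter, so the restricted counts describe the members alone. Bulk tissue does not distinguish fewer cells of a type from less RNA per cell.

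The abundant members placed opposite Rtl1 were among those with the smaller sex differences. MI0000154 (Mir127) was at 270.6 ± 163.6 CPM in 6-month males (126.1 to 838.7, median 221.8) and 201.2 ± 133.8 CPM in females (96.29 to 773.2, median 157.7). Its log2 difference was 0.48 ± 0.19 (SE) at 6 months (edgeR adjusted p = 0.0395) and 0.49 ± 0.16 at 10 months (adjusted p = 0.0132). Ranges overlapped over most of their length, and the call at 6 months was lost in 26 of the 48 fits that left out 1 library (adjusted p up to 0.112). MI0000162 (Mir136) differed by 0.50 ± 0.16 at 6 months (edgeR adjusted p = 0.00949) and by 0.37 ± 0.15 at 10 months (adjusted p = 0.0425), the latter lost in 18 of 44 such fits (up to 0.0726). MI0001526 (Mir434) differed by 0.60 ± 0.21 at 6 months (edgeR adjusted p = 0.019), a call lost without Q140 male replicate 1 (0.0624), and by 0.44 ± 0.19 at 10 months (adjusted p = 0.0584, not called).

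The other abundant members differed more. MI0003521 (Mir541), which lies in Mirg at the far end of the locus, was at 68.16 ± 40.93 CPM in 6-month males (21.88 to 177.1, median 52.29) and 25.24 ± 13.33 CPM in females (9.148 to 56.24, median 20.2). At 10 months it was at 54.04 ± 36.17 CPM in males (8.032 to 140.5, median 43.84) and 14.35 ± 6.917 CPM in females (6.025 to 39.26, median 12.23). With all libraries its male mean was higher in 12 of 12 genotype and age pairs, by 1.56 to 7.173 times (median 3.191). Without the libraries below the connectivity limit it was higher in 11 of 12, the exception being WT mice of the Q50 line at 10 months (12.87 CPM in males and 18.72 CPM in females). The log2 difference was 1.42 ± 0.22 at 6 months (edgeR adjusted p = 1.07e-06) and 1.82 ± 0.27 at 10 months (3.39e-07). MI0001163 differed by 1.10 ± 0.21 and 1.37 ± 0.22 at the 2 ages, and MI0000400 by 0.98 ± 0.22 and 1.46 ± 0.21, each with the male mean higher in 12 of 12 pairs with all libraries and in 11 of 12 without those below the limit. In WT mice of the Q50 line at 10 months MI0001163 was then at 21.54 CPM in males and 32.71 CPM in females, and MI0000400 at 4.524 and 5.112 CPM. For MI0000154, MI0000162 and MI0001526 the count was 10, 11 and 9 of 12 either way. The make-up of the cluster moved accordingly: MI0000154 held 47.1% ± 5.87 of the summed CPM in 6-month males and 55.8% ± 3.92 in females, and 40% ± 7.2 and 51.3% ± 3.59 at 10 months, while MI0003521 held 11.7% and 7.17% at 6 months and 11.1% and 5.81% at 10 months.

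Larger fitted differences were found in members of lower level. MI0001162 was at 4.687 ± 3.328 CPM in 10-month males and 0.9169 ± 0.5762 CPM in females, 4.90-fold higher in the fit (log2 2.29 ± 0.28, edgeR adjusted p = 8.58e-09). MI0001160 was at 10.05 ± 6.953 CPM in 10-month males and 2.28 ± 1.281 CPM in females (log2 2.08 ± 0.28), and differed by 1.52 ± 0.26 at 6 months. MI0000160 (Mir134), a microRNA that restrains dendritic spine growth in rat neurons, was 2.005-fold higher in males at 6 months and 3.902-fold at 10 months (log2 1.96 ± 0.38). At 10 months its level was 1.556 CPM in males and 0.3744 CPM in females. The levels of MI0001162 and MI0000160 correspond to a median of 9 and 5 counts per library. MI0000399, MI0000796 and MI0000798 were called at both ages, with males 2.159-, 1.992- and 2.317-fold higher at 6 months and 3.483-, 3.251- and 2.572-fold higher at 10 months. MI0001162 (log2 1.48) and MI0000176 (1.15) were also called at 6 months and MI0003533 (1.77) at 10 months. Some of these members did not reach the filter's minimum in females alone. They were MI0000160, MI0000399 and MI0003533 at 10 months and MI0000176 at 6 months. Their values describe the levels and are no support for a difference. The remaining called members, 7 at 6 months and 6 at 10 months, differed by 0.73 to 1.36 and by 0.82 to 1.60. Of these, only MI0001161 (Mir410) at 6 months, and MI0001161 and MI0003535 at 10 months, reached that minimum in females alone. The values of the others are likewise no support for a difference. The members tested and not called were MI0000797 and MI0003518 (Mir540) at 6 months, and MI0001526, MI0000605, MI0000625 (Mir341) and MI0001524 at 10 months. All of these lay on the male side too, but MI0000797, MI0003518 and MI0000605 did not reach that minimum in females alone at that age.

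**Figure D2:**
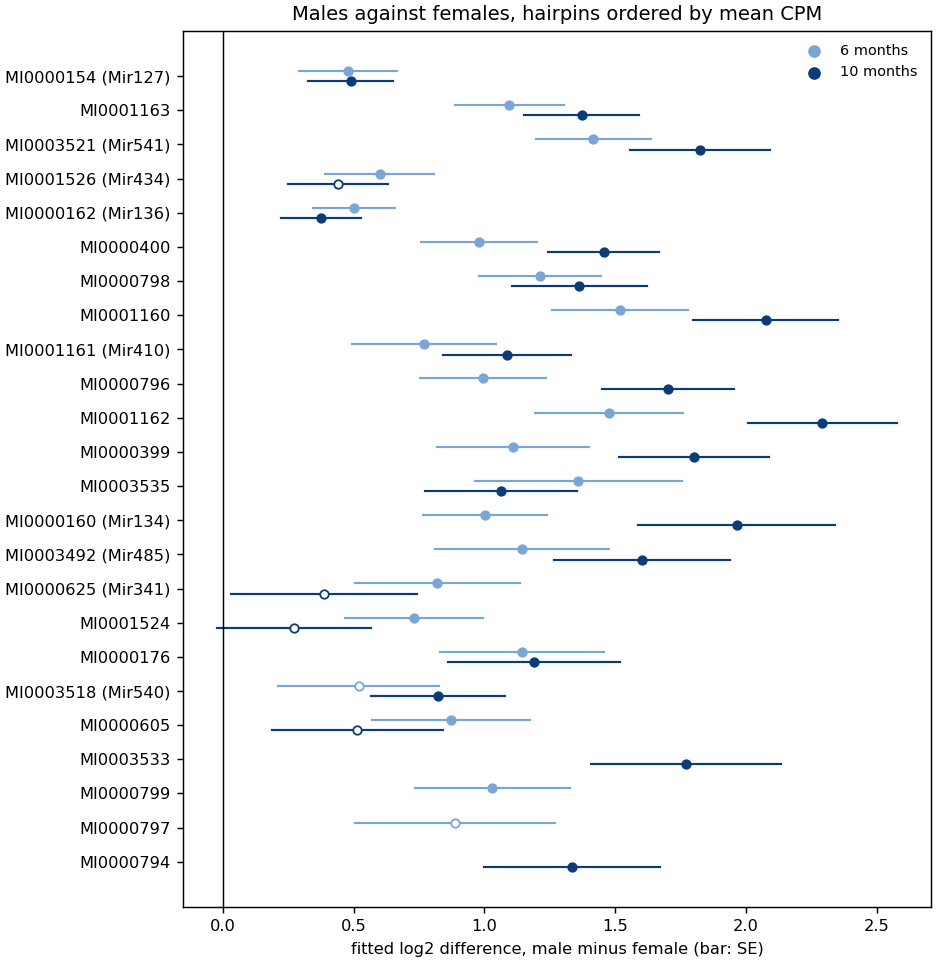
Log2 difference, males minus females, of each tested cluster member at 6 and at 10 months (x axis, log2 units; points are edgeR estimates, bars their SE; filled points have an adjusted p below 0.05). All 22 points of each age lie to the right of 0, from 0.48 to 1.52 at 6 months and from 0.27 to 2.29 at 10 months. Some members entered the test through the males, in which they were high.

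Within single lane tags the direction held less evenly. At 6 months 0 of 16 tested members were called within tag L6 (8 males, 10 females), all 16 on the male side, and 10 of 20 within L7 (14 males, 13 females), against 4.55% and 10.2% of all hairpins tested there called higher in males. At 10 months 0 of 11 were called within L5 (5 males, 7 females), where only 3 lay on the male side, 12 of 18 within L6 (12 of each) and 0 of 10 within L7 (4 of each), where 7 did. The shares of all hairpins called higher were 3.29%, 16.3% and 1.83%. These fits hold a genotype term on few mice. Without that term, a choice made after the data were seen, 5 of 16, 17 of 20, 6 of 11, 14 of 18 and 1 of 10 members were called, and all of those tested lay on the male side. All hairpins were then called higher at 11.8%, 14%, 10.2%, 18.6% and 6.96%. In the L5 fit the females were Q140 and WT mice and the males Q140, Q20 and Q50 mice, so the sexes differed in genotype. The summed levels within L5 at 10 months were 452.9 ± 180.6 CPM in 6 males and 260.7 ± 96.74 CPM in 7 females, one of the males being a library below the connectivity limit. The interaction of sex with age was called for 0 of 27 members tested (0% of 408 hairpins, and 3 members at an unadjusted p below 0.05, as were 13% of the hairpins), so a change of the sex difference between ages was not shown.

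Age came next. Of 27 members tested over both ages, 8 were called lower at 10 months and 0 higher, against 27% of 408 hairpins called lower and 31.6% called higher (edgeR; DESeq2's Wald test also called 8 lower and 0 higher, and 0 members had an unadjusted p below 0.05 on the higher side). The share of members called lower was close to that of all hairpins. MI0000154 (Mir127) fell from 236 ± 152 CPM at 6 months to 150.7 ± 71.99 CPM at 10 months, a log2 change of -0.76 ± 0.13 (edgeR adjusted p = 6.2e-07). Of the 44 older mice, 39 were below the 6-month mean of their own sex. MI0003521 (Mir541) changed by -0.69 ± 0.17 (adjusted p = 0.000306 by edgeR), with 37 of 44 mice below, and MI0000162 (Mir136) by -0.46 ± 0.11 (0.000306), with 35 of 44 below. At 6 months the medians of these members lay below the means in each sex, for MI0000154 at 221.8 against 270.6 CPM in males. A majority of mice below the mean is therefore no sign of a fall by itself. MI0000160 (Mir134) changed by -0.89 ± 0.23, MI0000796 by -0.59 ± 0.18 and MI0003518 (Mir540) by -0.59 ± 0.20. MI0001526 (Mir434, -0.34 ± 0.15, edgeR adjusted p = 0.0452) and MI0000797 (-0.63 ± 0.28, 0.0461) passed narrowly, and were lost in 33 and 41 of the 92 fits that left out 1 library. MI0000797 was at 1 CPM in 7 males and 1 female at 6 months, and in 2 males and 0 females at 10 months. It entered the test through the age in which it was high, so its call is no support. MI0001163 (-0.32 ± 0.15, edgeR adjusted p = 0.0689) and MI0000400 (-0.19 ± 0.16, 0.321) were not called.

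More members were called for age in females than in males. In fits within one sex 11 of 18 members were called lower at 10 months in females and 2 of 25 in males, against 22.8% of 368 hairpins in females and 22.9% of 384 in males. The filter could be reached through the younger mice. In females MI0000160 was at 1 CPM in 10 libraries at 6 months and 2 at 10 months, and MI0000399 in 10 and 5. Any call of these 2 members within females is no support. The summed level at 10 months was 0.687 times the 6-month level in females and 0.802 times in males, with 20 of 23 females and 14 of 21 males below the 6-month mean of their sex. The 6-month medians lay below those means too, at 290.5 against 357.2 CPM in females and 446.4 against 577.5 CPM in males. Most 6-month mice were below them as well. The 10-month medians were 223.6 CPM in females and 398 CPM in males. The interaction of sex with age, given above, called no member. The 2 ages are not known to share sequencing runs and the lane tag was not in this fit, so age and run cannot be told apart. With the column sums as the only scaling the median change of all hairpins moved from 0.01 to 0.13, the calls over all hairpins from 129 higher and 110 lower to 168 and 71, and the members called lower from 8 to 6.

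**Figure D3:**
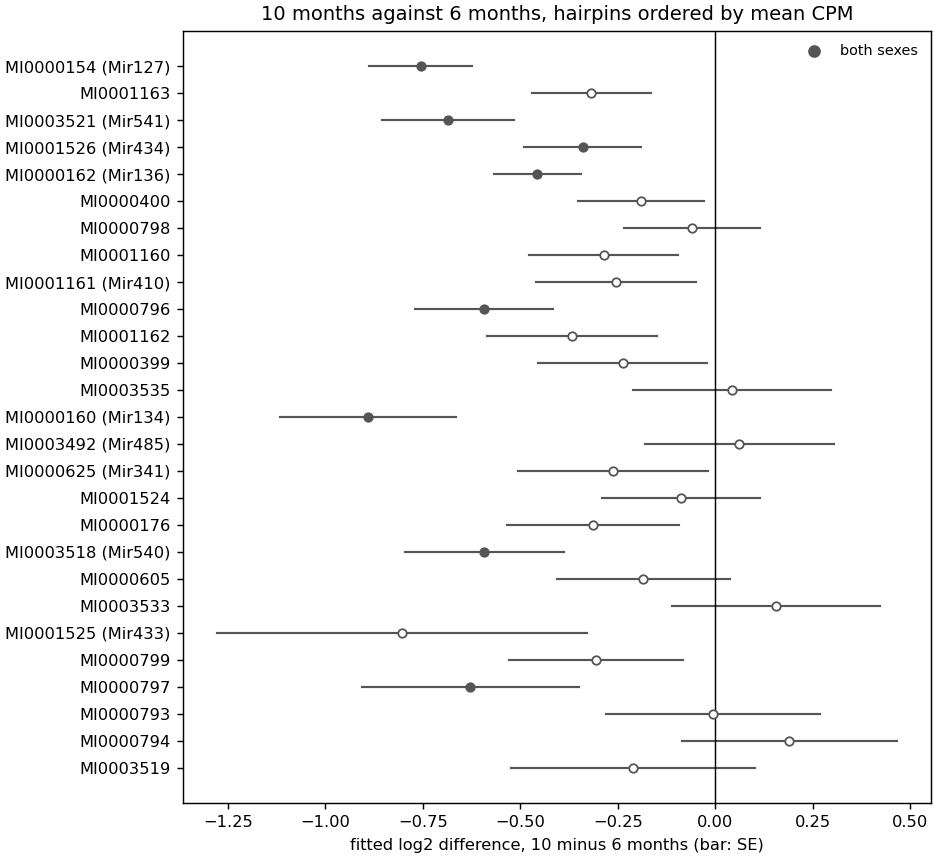
Log2 difference, 10 months minus 6 months, of the 27 tested cluster members (x axis, log2 units; points are edgeR estimates over both sexes, bars their SE; filled points have an adjusted p below 0.05). The 8 filled points lie to the left of 0, from -0.34 to -0.89, and the remaining points are open on either side of 0. MI0000797, a filled point, entered the test through the 6-month mice, in which it was high.

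Genotype was the question of the study, and with the default settings no cluster member was called by edgeR in any of its comparisons. Some other edgeR settings called MI0000162 (Mir136) at 10 months, as given below. DESeq2's Wald test called 1 member, for CAG length at 10 months (MI0000162, below), and 0 in the others. At each age Q50, Q92 and Q140 mice were compared with the controls, CAG length was tested as a number (WT taken as 7), and Q20 and Q50 mice were compared with the WT mice of their own line and the 2 kinds of WT mice with each other. Of 22 members tested at each age, 0 were called in all of these. Among all hairpins 0.267% were called for Q92 and 0% for Q50, Q140, CAG length and the line comparisons at 6 months. At 10 months 1.04% were called for Q92 (3 higher and 1 lower, or 4 and 0 on column sums and 3 and 2 on DESeq2 size factors), 1.31% for Q140, 2.09% for CAG length and 0% for Q50 and the line comparisons. Combining the 2 ages by their Z statistics, 0 of 20 members were called for any repeat length, against 0.273% of 366 hairpins for Q92, 0.546% for CAG length and 0% for Q50 and Q140. At an unadjusted p below 0.05 there were 2 members each for CAG length and Q140, 1 for Q50 and 0 for Q92, against 8.47%, 7.1%, 2.73% and 7.65% of the 366 hairpins.

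The levels behind these tests leaned in opposite directions in the Q92 mice. At 6 months the summed level was 341.1 ± 76.49 CPM in Q92 mice (241.7 to 441.2, median 347.6, n = 8) and 463.9 ± 271.9 CPM in controls (168.7 to 1200, median 371.7, n = 24), and 0 of 8 Q92 mice were above the control mean of their sex. The control medians lay below these means, at 505.5 against 537.6 CPM in males and 304.5 against 390.1 CPM in females. The log2 difference was negative in 21 of 22 members, with a median of -0.53 against -0.01 over all hairpins, and 3 members had an unadjusted p below 0.05, as had 7.75% of the 374 hairpins. At 10 months the summed level was 460.8 ± 343.2 CPM in Q92 mice (205.6 to 949.2, median 268, n = 6) and 296.3 ± 161.8 CPM in controls (134.2 to 670.2, median 255.9, n = 22), and 3 of 6 Q92 mice were above the control mean of their sex. The difference was positive in 22 of 22 members, with a median of 0.57 against 0.00 over all hairpins, and 6 members had an unadjusted p below 0.05, as had 17% of the 383 hairpins. The 2 highest males, at 949.2 and 851.7 CPM, carried the Q92 mean at 10 months. MI0000154 (Mir127) differed by -0.34 ± 0.27 at 6 months (edgeR adjusted p = 0.759) and by 0.56 ± 0.25 at 10 months (0.252). The change of the Q92 difference with age was tested after both values had been seen: 0 of 27 members were called (0.245% of 408 hairpins), 12 had an unadjusted p below 0.05 (13.2% of the hairpins did), and MI0000400 (1.09 ± 0.46, edgeR adjusted p = 0.261) and MI0000154 (0.84 ± 0.39, 0.312) gave examples.

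Q140 and Q50 mice at 6 months were close to the controls in most members. The summed level was 536.2 ± 445.8 CPM in Q140 mice (213.1 to 1604, median 406.1) and 535.1 ± 298.1 CPM in Q50 mice (237.2 to 974.4, median 401.1), with 8 mice each. The median log2 difference of the 22 members was 0.06 for Q140 and 0.11 for Q50, with a median SE of 0.38 and 0.40, and 0 members had an unadjusted p below 0.05 for either or for CAG length, against 1.34% of all hairpins for Q140, 1.87% for Q50 and 2.14% for CAG length. The sex difference of MI0000154 (Mir127) at 6 months, 0.48, is little larger than 1 such SE. MI0000154 itself differed by 0.05 ± 0.27 in Q140 mice and by 0.20 ± 0.28 in Q50 mice.

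At 10 months the values of Q140 mice lay above those of the controls without reaching the threshold. In Q140 mice the summed level was 427.7 ± 184.4 CPM (246.1 to 774.3, median 396, n = 8), and 7 of 8 mice were above the control mean of their sex. The log2 difference was positive in 20 of 22 members (median 0.45). MI0000162 (Mir136) was at 14.32, 25.73, 27.15 and 27.14 CPM in the 4 Q140 males and 14.71, 15.26, 27.9 and 14.15 CPM in the 4 females, against 14 ± 4.675 CPM in 10 control males and 11.8 ± 4.083 CPM in 12 control females. All 8 Q140 mice were above the control mean of their sex, and the ranges overlapped. Its log2 difference was 0.64 ± 0.21 (edgeR adjusted p = 0.107), and 3 members in all had an unadjusted p below 0.05, as had 13.6% of the 383 hairpins. With Q20 mice alone as controls it was 0.87 (edgeR adjusted p = 0.0405), the one member called there, against 5.48% of the hairpins. Q50 mice, at 332.5 ± 173.1 CPM (161.1 to 668.3, median 285.5, n = 8), had a median log2 difference of 0.01.

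CAG length as a number gave slopes on the same side at 10 months, with no member called by the default fit. The slope was positive in 22 of 22 members, with a median of 0.43 log2 units per 100 repeats against -0.01 over all hairpins, and 8 members had an unadjusted p below 0.05, as had 17% of the 383 hairpins. MI0000162 (Mir136) had a slope of 0.48 ± 0.15 per 100 repeats (edgeR adjusted p = 0.0731), and it was called on column sums (0.0454), with a minimum of 10 CPM (0.0459) and with DESeq2 (0.0483). These settings called 4.7%, 7.76% and 4.44% of all hairpins tested. MI0000154 (Mir127) had a slope of 0.43 ± 0.16 (edgeR adjusted p = 0.15), MI0001526 (Mir434) of 0.48 ± 0.18 (0.16) and MI0001163 of 0.44 ± 0.21 (0.294). MI0003521 (Mir541), the member with the clear sex difference, had a slope of 0.22 ± 0.24 (edgeR adjusted p = 0.661). At 6 months the slopes of these 5 members lay between -0.08 and 0.01. The interaction of CAG length with age was called for 0 of 27 members (0% of 408 hairpins, and 2 members at an unadjusted p below 0.05, as were 10.8% of the hairpins). The members share their libraries and vary together, so that a common sign over 22 members is not 22 observations.

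**Figure D4:**
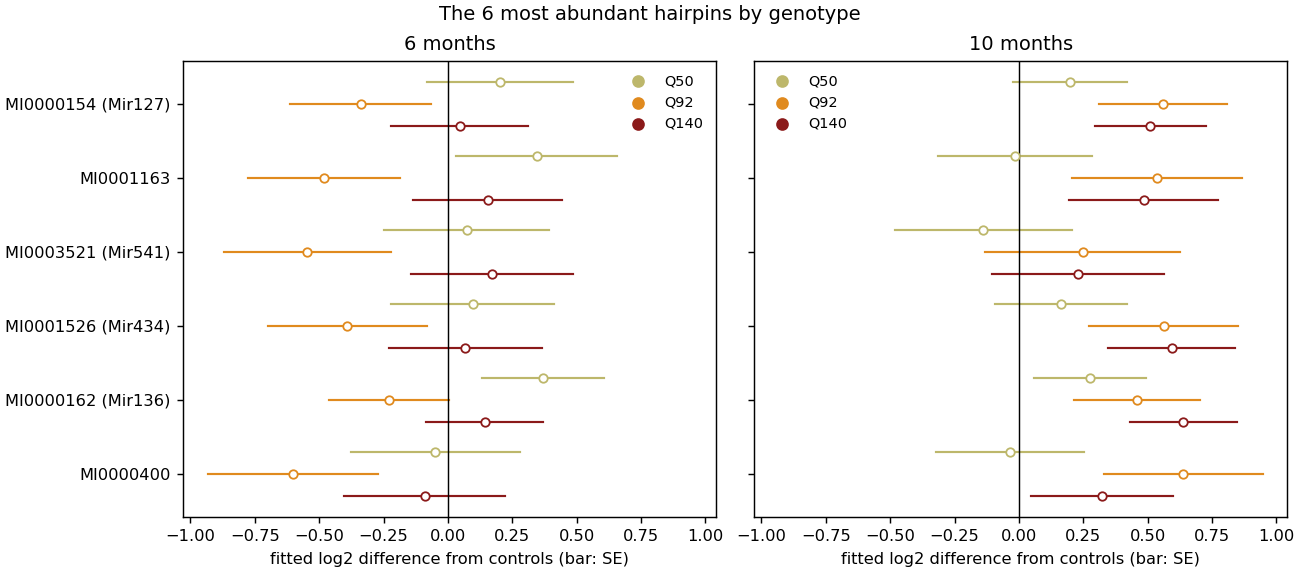
Log2 difference from controls of the 6 most abundant cluster members in Q50, Q92 and Q140 mice at 6 and 10 months (x axis, log2 units; points are edgeR estimates, bars their SE; open points have an adjusted p of 0.05 or more). All points are open, the Q92 points lie left of 0 at 6 months and right of 0 at 10 months, and the Q140 points lie right of 0 at 10 months.

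The comparisons within lines gave no call either. The 2 kinds of WT mice differed in the 10-month means, 342.4 ± 134.8 CPM in the Q20 line (n = 7) and 222 ± 81.05 CPM in the Q50 line (n = 7), with a median log2 difference of -0.52 over 22 members, 19 of them negative, and 2 members at an unadjusted p below 0.05, against 11.2% of the 383 hairpins. At 6 months the difference of the same groups lay the other way, 467.2 ± 247.3 CPM in the Q20 line and 580.5 ± 336.2 CPM in the Q50 line (n = 8 each), with a median log2 difference of 0.37. At 10 months this difference between WT mice had a median of the same size as that of Q92 mice against controls. Q20 mice and the WT mice of their line had a median log2 difference of -0.20 at 6 months and -0.02 at 10 months, and Q50 mice and theirs -0.27 and 0.36. At an unadjusted p below 0.05 there was 1 member in each of these at 10 months, against 10.2% of all hairpins for Q20 and 4.44% for Q50, and 0 in the line comparisons at 6 months, against 0.267% to 6.42%.

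What the members shared most was their variation from mouse to mouse. After the mean of each age and sex was removed from log2(CPM + 0.5), the 5 next most abundant members followed MI0000154 (Mir127) across the 92 mice kept. MI0001526 (Mir434) was closest, with Pearson r = 0.944 and Spearman rho = 0.929. MI0000162 (Mir136) had r = 0.859 and rho = 0.847, and MI0000400 r = 0.829 and rho = 0.826. MI0003521 (Mir541) had r = 0.746 and rho = 0.83, and MI0001163 r = 0.669 and rho = 0.767. Of these 5, the 2 closest to MI0000154 were, like it, placed opposite Rtl1. The rarer MI0001525 (Mir433), also opposite Rtl1, had r = 0.431. The relation of MI0001525 was not tested. Each of the other 5 relations had a two-sided permutation p of 1e-05, the smallest that 100000 resamples can give. Their Benjamini-Hochberg value was 1.07e-05 over the 15 relations computed for both ages together and each age alone. Without the 2 mice farthest from the median of MI0000154, r of these 5 was between 0.686 and 0.926. Within single ages r lay between 0.633 and 0.956, and within the 5 combinations of age and lane tag between 0.403 and 0.986, the lowest for MI0003521. All values of a mouse come from one library and share its depth and scaling.

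**Figure D5:**
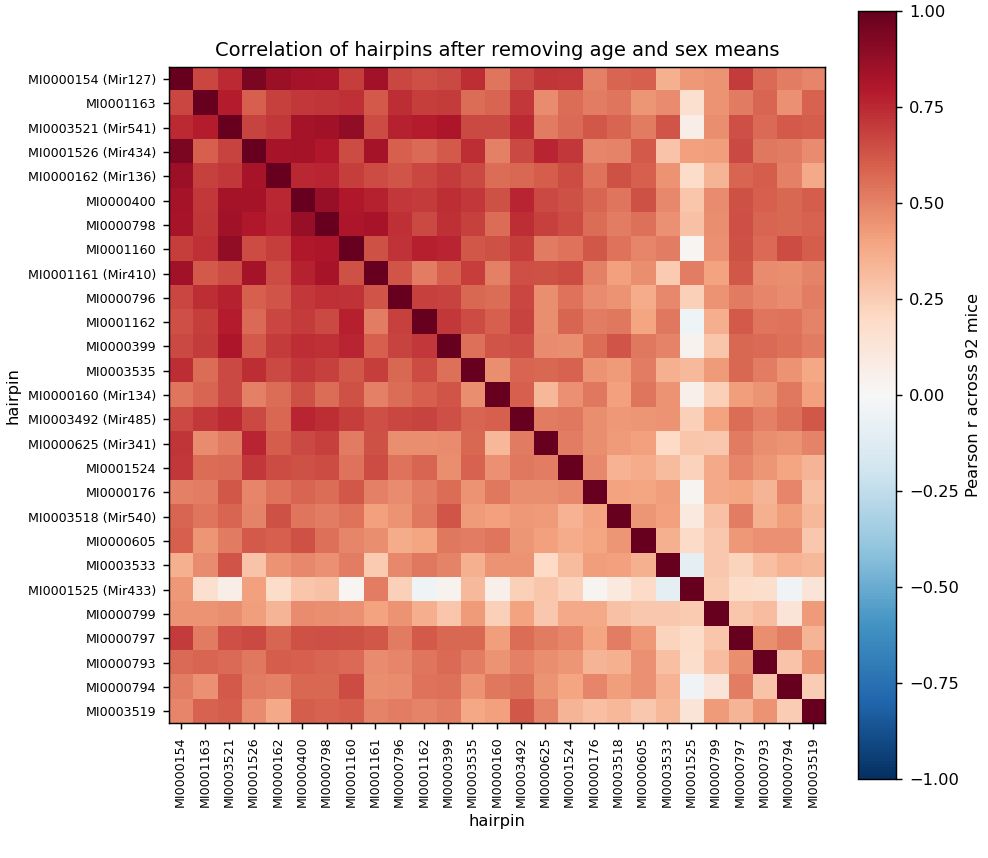
Pearson r between each pair of the 27 cluster members with enough counts (both axes, hairpins ordered by mean CPM), across 92 mice after the mean of each age and sex was removed from log2(CPM + 0.5). Colour gives r from -1 (blue) to 1 (red): nearly all pairs are red, most deeply among the abundant members at the upper left (0.944 for MI0000154 with MI0001526), and MI0001525 (Mir433) is the pale row.

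Over the 27 members that reached 1 CPM in 8 or more libraries, 348 of 351 pairs had a positive r, with a median of 0.53 and a range from -0.101 to 0.944. The 3 negative pairs all involved MI0001525 (Mir433), the member with the single high library, whose r with MI0000154 (Mir127) was 0.431. Over all pairs of the 409 hairpins that passed the same minimum the median was 0.029. The abundant hairpins outside the cluster, at or above the mean of the sixth member, had a median of 0.09 over 21115 pairs, and the 15 pairs of the 6 most abundant members a median of 0.754. Among the 3 abundant members placed opposite Rtl1 the median r was 0.859 (3 pairs), between them and the other members, MI0001525 included, 0.619 (72 pairs), and among the other members 0.512 (276 pairs). MI0001525, also opposite Rtl1, had r of 0.431, 0.41 and 0.18 with these 3. MI0001161 (Mir410), in Mirg, had 0.843 with MI0000154. The 3 rank 1, 4 and 5 by mean CPM, and many of the others are rare, so position and abundance cannot be told apart.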

How the data were processed

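Estimated counts per miRBase hairpin and FPKM values were deposited by the authors for all 96 libraries. Per the study's methods, strand-specific 36-base reads from total liver RNA enriched for small RNA were clipped, aligned to mm10 with STAR and counted with HTSeq; the submitters' processing notes name CASAVA 1.8.2, and no source used here gives the strand setting of the counting. The deposited FPKM values, scaled by the authors for length and depth, served only for hairpin lengths and the order per length. The estimated counts were used with values below 1e-06 set to 0 and, for tests, rounded to whole numbers, since the design had assumed counts. CPM were taken over column sums. Tests used edgeR 4.0.16 in R 4.3.3 with TMM scaling, all hairpins that reached 1 CPM in 8 or more libraries, and terms for sex, genotype and lane tag within an age. Benjamini-Hochberg adjustment ran over all hairpins tested, with a threshold of 0.05. Ages were combined by signed Z statistics. Co-variation was tested with scipy 1.17.1. The test code was tested on simulated data.

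Alternatives were DESeq2 1.42.0, DESeq2 size factors, column sums alone, a minimum of 10 CPM, no filter, all libraries, other controls, no lane tag, single lane tags, single sexes, a replicate block and leaving out each library in turn. Named genes were the 6 members with the highest mean CPM and, in each comparison, up to 10 members past the threshold in each direction by smallest p, all counts being taken over the 34 IDs. Members and lists were chosen with earlier results of these data known. Per the study's methods, a litter gave at most a single mouse of each sex and genotype, and cages held mice of the same sex. Mice of different groups may therefore share a litter. Litter and cage were not among the labels used here and entered no fit. Lists of liver cell type markers and of other hairpins of the locus were not used, because 0 IDs were paired with symbols. Totals between 2195052 and 6662671 counts limit the rarer members, and reads without molecular identifiers are not independent molecules.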

Additional observations from a re-analysis of the deposited data

Results flagged for a closer look

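In groups of 4 mice the most extreme mouse was compared with its nearest neighbour by Dixon's ratio (critical value 0.829), for the summed CPM and the 6 most abundant members. Of 168 pairings of a group with a measure, 26 exceeded it, in 14 of the 24 groups of mice. About 1 in 20 would for normally distributed values. CPM were not log-transformed here and most flagged values were high ones, so that rate does not give the share due to chance. The summed CPM did so in 3 of 24 groups: 1604 CPM in a Q140 male at 6 months (nearest 451.6), 547.3 CPM in a Q20 female at 6 months (232.7) and 529.5 CPM in a WT male of the Q50 line at 10 months (198.7), whose library was below the connectivity limit and outside every test.

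The 7 measures share their libraries, so 1 mouse often stood out in several. The Q140 male at 6 months was also high for MI0000154 (838.7 CPM), MI0001163 (235.7 CPM) and MI0001526 (165.1 CPM), and the Q20 female at 6 months for MI0001163 (88.27 CPM) and MI0000162 (22.77 CPM). The WT male of the Q50 line was also high for MI0001163 (148.6 CPM), MI0003521 (78.19 CPM) and MI0000400 (15.6 CPM). A WT male of the Q20 line at 6 months was high for MI0000154 (568.6 CPM) and MI0001526 (106.6 CPM), and a WT female of the Q50 line at that age for MI0000400 (25.27 CPM).

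At 10 months single mice were high for MI0001163 in Q50 males (169.9 CPM), Q92 females (40.42 CPM), WT females of the Q20 line (52 CPM) and WT females of the Q50 line (67.54 CPM), and low in Q50 females (23.72 CPM). Others were high for MI0000154 in Q50 females (209.2 CPM), for MI0003521 in Q92 males (140.5 CPM) and WT females of the Q50 line (39.26 CPM), and for MI0000400 in WT females of the Q20 line (6.316 CPM). MI0000162 was high in 1 Q140 female at 10 months (27.9 CPM), and low in 1 Q140 male at 10 months (14.32 CPM) and 1 Q92 male at 6 months (13.49 CPM). No interaction with age was called for any member by edgeR.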

How the results depend on the processing

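The sex counts depended most on the filter and the lane tag. With a minimum of 10 CPM, 8 of 8 members tested were called at 6 months (20 of 22 by default) and 7 of 7 at 10 months (18 of 22). This minimum too could be reached through the males alone. MI0000400 passed it at 10 months with no kept female above 8.196 CPM, so its call there is no support. At 6 months MI0000400 (female median 5.006 CPM) and MI0001160 (female mean 3.291 CPM) had fewer than 8 females at 10 CPM. Their calls there are no support either. For MI0000798, with female means of 5.255 CPM at 6 months and 4.991 CPM at 10 months, this was not counted. Within lane tags the counts were 0 (L6) and 10 (L7) at 6 months and 0 (L7) at 10 months. Without a genotype term, a choice made after the data were seen, they were 5 (L6, 6 months), 6 (L5) and 1 (L7). With that term the L5 fit at 10 months rests on Q140 male replicate 1, the only male with females of its genotype. Under L5 at 10 months the log2 difference turned negative for MI0000154 (-0.73), MI0000162 (-0.46), MI0000400 (-0.14), MI0003521 (-0.30) and MI0000798 (-0.22), and under L7 for MI0000154 (-0.17) and MI0000162 (-0.071). Leaving out 1 library gave 14 to 21 calls at 6 months (14 without Q140 male replicate 1) and 17 to 19 at 10 months. Without the 2 libraries of highest sum, chosen after the data were seen, 19 of 20 were called at 6 months. Shares of all hairpins are given above for the default fit and the lane tags only. The other counts of this paragraph have no such share beside them and describe the members alone.

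For age, 5 of 9 members were called lower with a minimum of 10 CPM, 2 within males, 11 within females, 6 without the 2 highest libraries and 6 to 9 with 1 library left out. Except within males and within females, these counts too have no share of all hairpins beside them. For genotype, 1 member (MI0000162) was called for Q140 at 10 months with Q20 mice alone as controls, and 1 for CAG length at 10 months on column sums, with a minimum of 10 CPM and with DESeq2; every other setting run gave 0. Without MI0000154 the summed CPM was 162.3 in Q92 mice at 6 months, 119.1 in females at 10 months and 238.4 in Q140 mice at 10 months. These sums are lower by the level of that member by construction. The cause of the other shifts was not tested, beyond the fewer members or mice that a setting leaves.

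Replicate numbers did not pair the mice: the mean correlation of deviations was -0.0046 for the same number (1104 pairs) and 0.002 for others (3312 pairs). With a replicate block the calls were 20 and 18 for sex, 6 for age and 0 for genotype, again without a share of all hairpins. Members below 1 CPM rest on few counts.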

Other observations

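The highest level of a member was often in the same mice. Of the 34 members, 10 had their highest CPM in Q92 male replicate 1 at 10 months, 6 in Q140 male replicate 1 at 6 months and 5 in WT female replicate 3 of the Q50 line at 6 months. The last 2 mice, with summed levels of 1604 and 1200 CPM, had a connectivity Z.k of -3.543 and -4.4, inside the limit of -5. Both carried lane tag L6. How many of all hairpins had their highest CPM in these mice was not counted. Some of the members' maxima rest on few counts, such as 8 for MI0001165 and 11 for MI0000793. MI0001525 (Mir433 by length) went its own way, with 73 counts in WT male replicate 1 of the Q20 line at 6 months, a mouse whose summed level was 499.8 CPM, and with no count in many libraries, as it was detected in 49 of 96.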
